A study of Homo sapiens with 4 samples.

Results

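The genes described here encode the proteasome: the subunits of its core and caps, its activators and inhibitor, and its assembly chaperones. They were chosen by name, as protein-coding genes whose symbol has PSM, a letter from A to G and a digit, with 1 such gene left out by name, and 49 of the 60544 genes in the table met that rule. Of the 49, 47 had enough counts to be tested among 16802 genes. PSMA8, a core subunit of the testis, had 0 counts in every library, and PSMB11, a core subunit of the thymus, had counts of 1 and 2 in shNC and of 2 and 0 in sh812. The rule also took in PSMC3IP and PSME3IP1, which are named as partners of proteasome genes and are not proteasome subunits. They are described apart.

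Poly(A) RNA was sequenced from PC3, an established human prostate cancer cell line grown in RPMI-1640 medium with fetal bovine serum. The study set METTL3 knockdown, labelled sh812, against a control labelled shNC, with 2 libraries in each group. The label sh812 was read as the knockdown because it is the only label beside shNC. The labels give 1 knockdown label only, so an effect of METTL3 loss and an effect particular to that construct cannot be told apart. They do not say whether the 2 libraries of a group came from separate cultures, so the p-values measure the spread between these libraries, which may be technical.

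The proteasome degrades proteins tagged with ubiquitin. Its barrel-shaped 20S core is built from rings of alpha and beta subunits, and a few of the beta subunits carry the proteolytic sites inside the barrel. The 19S cap binds ubiquitin chains, unfolds the protein with a ring of ATPases and feeds it into the core. Interferon can replace the standard proteolytic subunits with PSMB8, PSMB9 and PSMB10, which gives the immunoproteasome, a form known for making peptides for antigen presentation. METTL3 is the enzyme that adds N6-methyladenosine to messenger RNA.

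METTL3 was counted 1682 and 1379 times in shNC and 269 and 313 times in sh812. The groups were far apart: its log2 fold change stood at -2.42 ± 0.11 (SE), and the adjusted p from edgeR's quasi-likelihood fit was 5.54e-14, by the Benjamini-Hochberg method across all genes tested. Total counts ran from 31450648 to 37041330 per library, and the 49 genes took 0.812% and 0.841% of them in shNC and 0.846% and 0.82% in sh812. Levels are given as CPM, the count scaled to the size of its library. The epithelial markers KRT8, KRT18, KRT19, EPCAM and CDH1 summed to 816 to 921 CPM in shNC and 956 to 1017 CPM in sh812, and 3 of the 5 rose. KLK3 and KLK2, androgen-induced genes of prostate epithelium, had 0 counts in every library, and TMPRSS2 was lower in sh812 than in shNC. The summed immune markers stayed at 0.822 to 1.11 CPM in shNC and 0.627 to 0.894 CPM in sh812, with CD3E and MS4A1 at 0 in every library. The fibroblast markers COL1A1, COL1A2, DCN, LUM and PDGFRB summed to 51.9 to 53.2 CPM in shNC and 47.2 to 54.3 CPM in sh812. Of these, COL1A2 rose. COL1A1, the most abundant, had 37.6 and 39.4 CPM in shNC and 29.3 and 34.5 CPM in sh812 (adjusted p = 0.0589 by edgeR). DCN was also lower in both sh812 libraries, LUM and PDGFRB overlapped between the groups, and none of these passed. The part of these markers in the results below was not tested.

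Of the 47 genes tested, 6 were higher in sh812 at an adjusted p under 0.05 (edgeR, Benjamini-Hochberg) and 0 were lower. They were the core subunits PSMB3 and PSMB5, the immunoproteasome subunit PSMB8, the activator subunits PSME1 and PSME2, and the assembly chaperone PSMG4. These 6 are 12.8% of the proteasome genes tested, while 5.43% of all 16802 genes tested rose and 5.42% fell. Among the 9543 genes with a mean of at least 10 CPM the same shares were 8.54% and 7.72%. The sizes were small: the 6 genes stood at 117% to 125% of their shNC level. At an unadjusted p under 0.05 by edgeR there were 11 proteasome genes higher and 1 lower, against 11.9% higher and 12.9% lower over all genes. Both sh812 libraries lay above both shNC libraries for 19 of the 47 and below them for 2, while 26.2% of all genes lay above and 27.4% below.

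The processing bore on these counts. With each library's trend on transcript length removed, 0 of the 6 genes were called. With counts scaled by library size alone, in place of the trimmed mean of M-values (TMM), 561 genes were higher and 1328 lower, where TMM gave 912 and 910. The proteasome genes called were then PSMB5 and PSME1 as higher and PSME3 as lower. Of the 47 fitted changes, 38 were above 0 and 9 below under TMM, against 49.0% above 0 over all genes, and their median was 0.079 on the log2 scale, beside -0.0056 for all genes. In bulk RNA, a different mix of cells and a different amount of RNA per cell cannot be told apart.

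**Figure D1:**
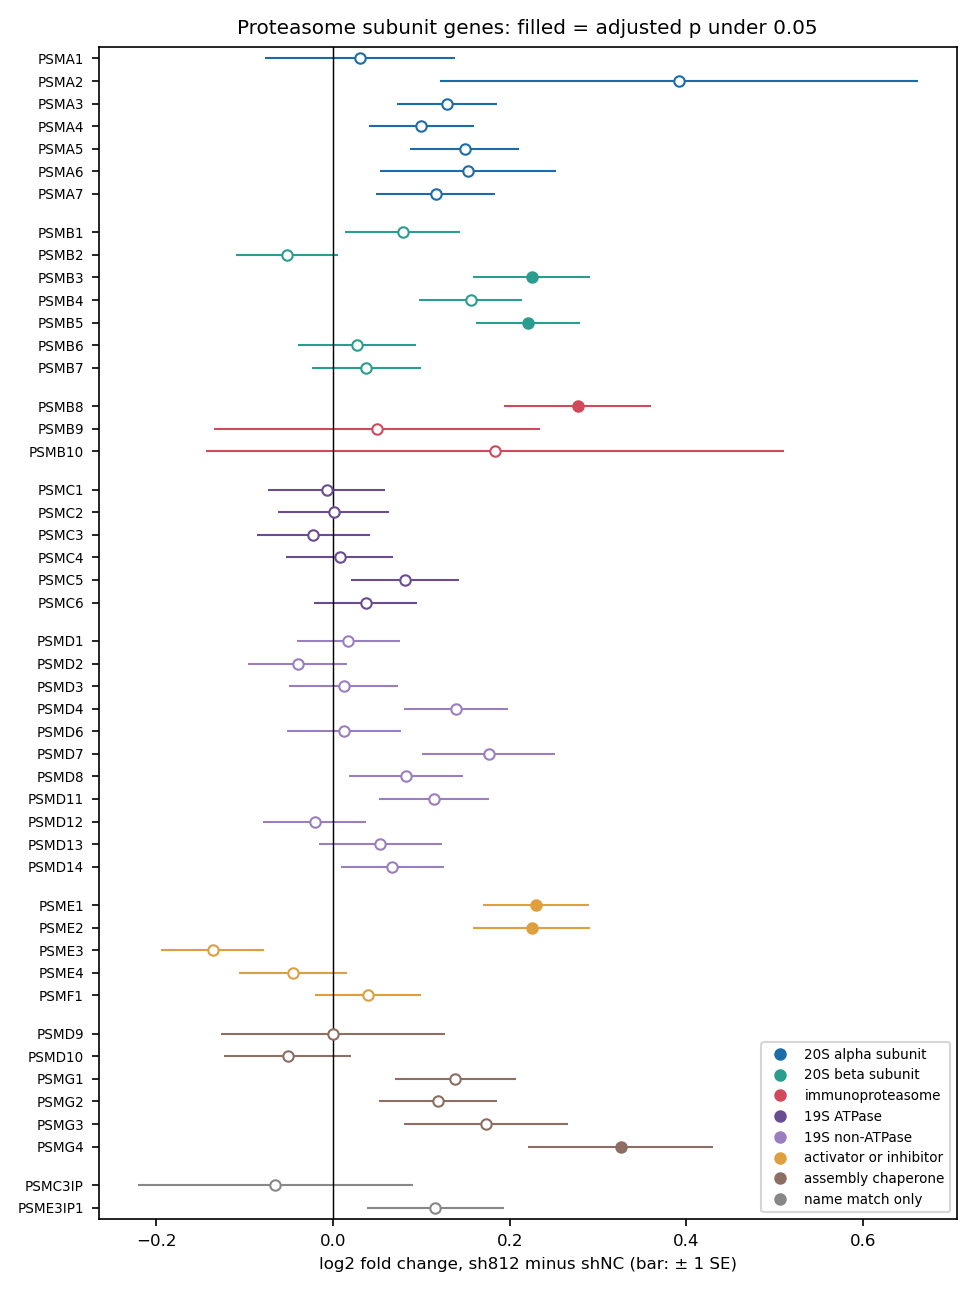
Log2 fold change of each of the 47 tested genes, sh812 minus shNC, ordered by role, with a bar of 1 SE on either side. Filled points are the 6 genes with an adjusted p under 0.05, and points of the alpha subunits all lie right of 0 while those of the ATPases lie close to it.

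Most fitted changes in the core were above 0, as they were in the cap and the chaperones, and with the length trend removed 8 of the 14 standard core subunits and 11 of the 17 cap subunits were above 0. All 7 alpha subunits, which form the outer rings and the gate, had a fitted change above 0, from 0.03 in PSMA1 to 0.39 in PSMA2, and none passed the test. Both of these extremes are thinly counted. PSMA2 was counted 81 and 60 times in shNC and 88 and 100 times in sh812, which is 2.14 and 1.9 CPM against 2.51 and 2.79 CPM, and its change of 0.39 ± 0.27 (SE) had an adjusted p of 0.4 by edgeR. Its groups did not overlap, but its standard error was more than 4 times that of PSMA3. PSMA1 had 18.0 and 20.2 CPM in shNC and 19.3 and 19.6 CPM in sh812, with the sh812 libraries between the shNC ones.

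The low counts of these subunits went with gene models that overlap. In the GENCODE 29 annotation of GRCh38, 97.1% of the coding bases of PSMA2, 88.6% of those of PSMA1 and 70.4% of those of PSMA6 lie in a second gene on the same strand, a readthrough of the subunit and its neighbour. The readthrough genes themselves had 0 to 4 counts per library. Per kilobase of transcript, PSMA2, PSMA1 and PSMA6 stood at 1.86, 12.7 and 24.0 CPM in shNC, while the other 4 alpha subunits stood between 69.3 and 431 CPM per kilobase. Whether reads that fit both genes were left uncounted was not tested. PSMD9 and PSMB10 share 58.7% and 58.3% of their coding bases in the same way. With these 5 genes left out, a choice made after seeing the data, the same number of genes was called and the median change was 0.073.

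Of the 4 alpha subunits with unshared models, PSMA3 had 389 and 395 CPM in shNC and 438 and 419 CPM in sh812, a change of 0.13 ± 0.06 (SE). PSMA5 had 173 and 189 CPM in shNC and 201 and 201 CPM in sh812, a change of 0.15 ± 0.06 (SE). In both genes the sh812 libraries lay above the shNC libraries, and the adjusted p values were 0.154 and 0.124 by edgeR. PSMA4 had a change of 0.10 and PSMA7 one of 0.12, and neither passed.

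Of the 7 standard beta subunits, PSMB3 and PSMB5 rose. PSMB5, which carries the chymotrypsin-like site and is the main target of proteasome inhibitor drugs, had 268 and 282 CPM in shNC and 329 and 312 CPM in sh812. The lower sh812 library was above the higher shNC library, and the change was 0.22 ± 0.06 (SE, adjusted p = 0.0159 by edgeR). PSMB3, a beta subunit with no proteolytic site, had 97.8 and 108 CPM in shNC and 122 and 118 CPM in sh812, also without overlap, with a change of 0.22 ± 0.07 (SE, adjusted p = 0.0295 by edgeR).

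The other proteolytic subunits did not pass. PSMB6, with the caspase-like site, had 99.8 and 107 CPM in shNC and 109 and 102 CPM in sh812. PSMB7, with the trypsin-like site, had 152 and 165 CPM in shNC and 164 and 162 CPM in sh812. Their groups overlapped, and their changes were 0.03 and 0.04. PSMB4, a structural subunit, had a change of 0.16 with an adjusted p of 0.0869 by edgeR and no overlap. PSMB2 was the only standard core subunit with a fitted change below 0, at -0.05, from 267 and 271 CPM in shNC to 260 and 259 CPM in sh812. Over the 14 standard core subunits the median change was 0.12, with 13 above 0 and 2 called.

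The immunoproteasome subunits had much lower CPM than their standard counterparts, and 1 of the 3 rose. PSMB8, which takes the place of PSMB5, was counted 1555 and 1515 times in shNC and 1916 and 1897 times in sh812, or 41.0 and 47.9 CPM against 54.6 and 53.0 CPM. The groups did not overlap, and the change was 0.28 ± 0.08 (SE, adjusted p = 0.0319 by edgeR). PSMB9, which takes the place of PSMB6, had 4.64 and 6.45 CPM in shNC and 5.67 and 5.76 CPM in sh812, so that both sh812 libraries lay between the shNC libraries. PSMB10, which takes the place of PSMB7, had 56 and 55 counts in shNC and 74 and 55 in sh812, the higher value being in 1 library only. As said above, 58.3% of the coding bases of PSMB10 are shared with a readthrough gene. Whether its low counts come from reads left uncounted was not tested. The changes of PSMB9 and PSMB10, 0.05 ± 0.18 and 0.18 ± 0.33 (SE), had adjusted p values of 0.91 and 0.791 by edgeR. Errors of this size leave room for a change as large as that of PSMB8. The change of PSMB9 was -0.07 with the length trend removed and ran from -0.25 to 0.31 when 1 library was left out, and that of PSMB10 ran from -0.13 to 0.39. PSMB8 shares 618 exonic bases with its antisense RNA PSMB8-AS1, which had counts of 2 to 19 per library.

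The ratio of each immune subunit to its standard partner, per length of transcript, did not separate the groups. PSMB8 stood at 13.7% and 15.3% of PSMB5 in shNC and at 14.9% and 15.3% in sh812. PSMB9 stood at 5.09% and 6.57% of PSMB6 in shNC and at 5.72% and 6.15% in sh812. PSMB10, with its partly shared coding bases, stood at 0.783% and 0.846% of PSMB7 in shNC and at 1.04% and 0.765% in sh812. The log2 ratios differed by 0.06, 0.04 and 0.13, with an exact permutation p of 1 in each of the 3 comparisons, two-sided, and the smallest p that 2 against 2 libraries allow is 0.3333. PSMB8 and PSMB5 were higher in sh812 by like amounts, so their ratio changed little.

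**Figure D2:**
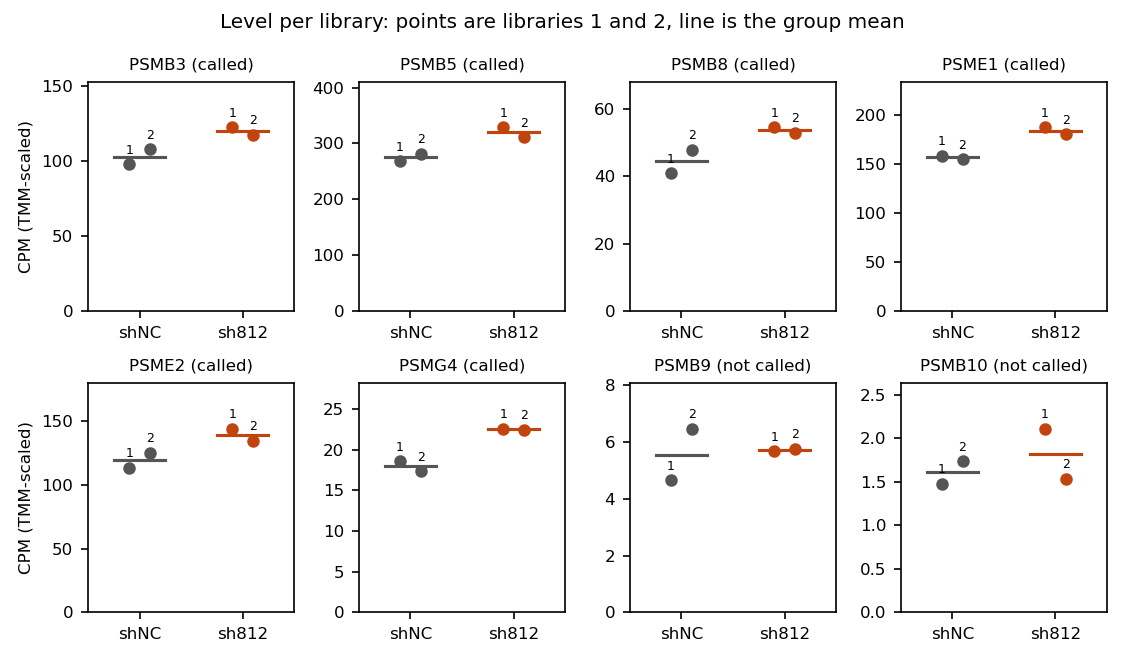
CPM of the 6 genes that rose and of PSMB9 and PSMB10 in each library, with points for libraries 1 and 2 and a line for the group mean. In the 6 genes both sh812 points lie above both shNC points, while in PSMB9 the sh812 points lie between the shNC points and in PSMB10 the groups overlap.

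PSME1 and PSME2 encode the 2 subunits of the interferon-inducible activator ring that opens the ends of the core without ATP, and both rose. PSME1 had 159 and 155 CPM in shNC and 187 and 180 CPM in sh812, with a change of 0.23 ± 0.06 (SE, adjusted p = 0.0138 by edgeR). PSME2 had 113 and 125 CPM in shNC and 144 and 135 CPM in sh812, with a change of 0.23 ± 0.07 (SE, adjusted p = 0.0282 by edgeR). The groups did not overlap in either gene. PSME3, the subunit of the nuclear activator ring, leaned the other way: it had 222 and 227 CPM in shNC and 204 and 205 CPM in sh812, and its change of -0.14 ± 0.06 (SE) had an adjusted p of 0.139 and an unadjusted p of 0.0277 by edgeR. PSME4, a large single-chain activator, and PSMF1, an inhibitor of the core, had changes of -0.04 and 0.04.

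Processed pseudogenes can take reads from a parent gene. PSME2P1, a pseudogene of PSME2 on chromosome 5 (98213402 to 98214121, plus strand), had 32 and 38 counts in shNC and 78 and 86 in sh812 and was called higher (adjusted p = 0.0248 by edgeR). PSME2 itself had 3956 to 5047 counts per library, so the pseudogene's counts are a small part of the pair's. How reads that match both copies were counted is not given in the sources used here, so the values of both are uncertain to that extent.

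Assembly chaperones help build the core and cap and are not part of the finished particle. PSMG4, a chaperone of the alpha ring, had 18.5 and 17.3 CPM in shNC and 22.5 and 22.4 CPM in sh812. The groups did not overlap, and the change of 0.33 ± 0.10 (SE) had an adjusted p of 0.0447 by edgeR. PSMG4 shares 1388 exonic bases with SLC22A23, a gene that fell, and 174 with TUBB2B, both on the opposite strand. Whether reads of these genes entered the counts of PSMG4 was not tested. The call of PSMG4 was lost without the low-count filter and in DESeq2. PSMG1, PSMG2 and PSMG3, which act on the same ring, had changes of 0.14, 0.12 and 0.17 and did not pass. The chaperones of the 19S base, PSMD9 and PSMD10, had changes of 0.00017 and -0.05, and PSMD10 had 69.2 and 76.0 CPM in shNC and 70.3 and 69.7 CPM in sh812.

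The 19S cap showed no called gene among its 17 subunits, and at an unadjusted p under 0.05 by edgeR there were 2 higher and 0 lower, a share higher close to the 11.9% of all genes. For the 6 ATPases, PSMC1 to PSMC6, the median change was 0.0041, and the groups overlapped in all 6. PSMC5 had the highest change, 0.08 ± 0.06 (SE), with 192 and 208 CPM in shNC and 215 and 207 CPM in sh812. PSMC3 had the lowest, -0.02 ± 0.06 (SE), with 173 and 187 CPM in shNC and 185 and 169 CPM in sh812. In both genes the spread between the libraries of a group was as wide as the gap between the groups.

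For the 11 non-ATPase subunits the median change was 0.05. PSMD7, a scaffold that pairs with the deubiquitinase PSMD14, had the highest change, from 51.1 and 55.5 CPM in shNC to 60.1 and 60.3 CPM in sh812 (0.18 ± 0.08 SE, adjusted p = 0.138 by edgeR). PSMD4, a ubiquitin receptor, followed with a change of 0.14 and an adjusted p of 0.133 by edgeR. PSMD2, a large scaffold of the base that docks ubiquitin-like proteins, had the lowest, -0.04 ± 0.06 (SE), from 1256 and 1351 CPM in shNC to 1293 and 1244 CPM in sh812. PSMD2 was also the most abundant proteasome gene per kilobase, at 495 CPM per kilobase in shNC, and the next was PSMA3 at 431. The remaining 8, PSMD1, PSMD3, PSMD6, PSMD8, PSMD11, PSMD12, PSMD13 and PSMD14, had changes between -0.02 and 0.11, and of these only PSMD11 and PSMD14 had both sh812 libraries above both shNC libraries. With library size alone as the scaling, the median of the 17 cap subunits changed sign, from 0.017 to -0.028. A difference between core and cap was not tested. Gene models overlap in the cap as well: PSMC1 shares 75.8% and PSMD7 30.7% of its exonic bases with a gene on the opposite strand. Whether these overlaps bear on the counts was not tested.

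**Figure D3:**
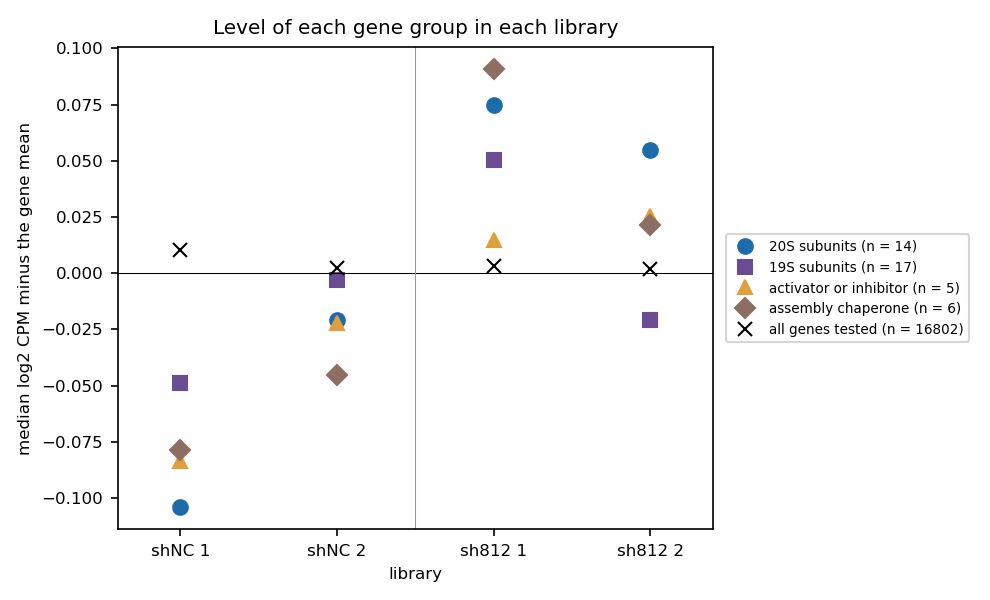
Median over each gene group of the log2 CPM in a library minus the gene's mean over the 4 libraries, with 1 symbol per group. The core subunits lie lowest in shNC 1, at -0.10, and highest in sh812 1, at 0.07, while shNC 2 lies at -0.02 and the crosses for all genes stay near 0.

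The 2 control libraries did not stand at the same level. The median over the 47 genes, relative to each gene's mean, was -0.08 in shNC 1, -0.0071 in shNC 2, 0.07 in sh812 1 and 0.02 in sh812 2. Between shNC 1 and shNC 2 the genes differed by a median of 0.09, which is more than the median of 0.079 between the groups. The calls followed the choice of libraries. Without shNC 1, PSMB5, PSME1, PSMG1 and PSMG4 were called higher, beside 5.24% of all genes, and without shNC 2, 17 were called higher, beside 9.50% of all genes. Without sh812 1 or sh812 2, 0 were called, beside 1.46% and 1.55% of all genes higher. The count of proteasome genes was thus lowest and highest where the share of all genes was. Whether that count followed the share over the whole table was not tested. In these fits of 3 libraries the lone library is assumed to vary like the other group.

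Transcript length moved with these differences. Over the 12257 genes with a mean log2 CPM above 1 and a gene model, Spearman's rho between transcript length and the change was -0.32, and between length and the difference of the 2 shNC libraries it was -0.30, while between the sh812 libraries it was 0.04. Across the 47 proteasome genes the same 3 values were -0.56, -0.31 and -0.08. These are descriptions across genes, which share the 4 libraries. Proteasome transcripts were short, with a median of 1390 bases, against 2277 bases over all genes, and the core subunits were shorter still, at 954 bases. The 6 called genes had transcripts of 773 bases (PSMB3), 775 bases (PSMG4), 815 bases (PSME2), 1009 bases (PSMB5), 1020 bases (PSME1) and 1124 bases (PSMB8).

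**Figure D4:**
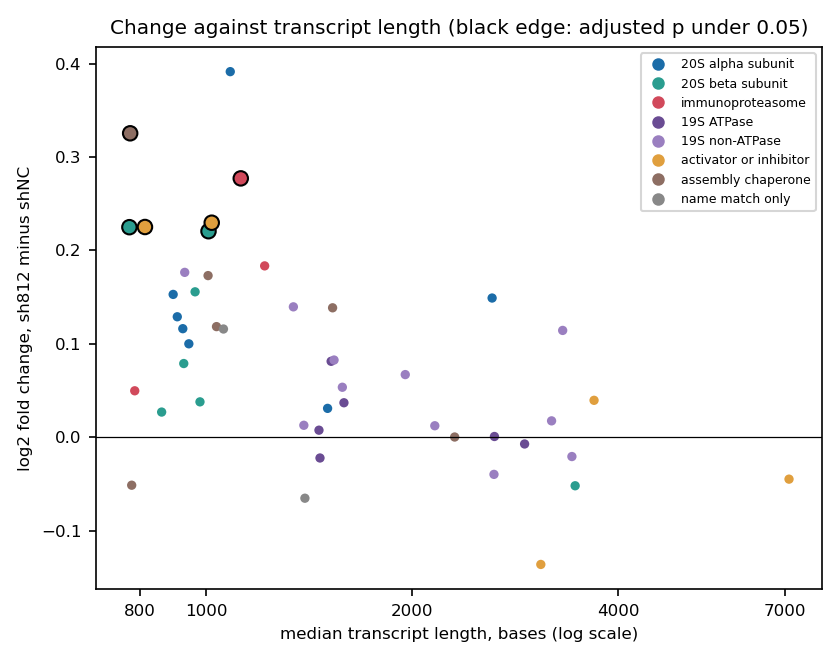
Log2 fold change of each tested gene against its median transcript length on a log axis, with colours for the roles and a black edge on the 6 called genes. The 6 called genes all lie left of 1200 bases, and the longer transcripts lie mostly nearer to 0 or below it.

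When each library's trend on transcript length was removed before the fit, 0 of the 47 proteasome genes were called in either direction by edgeR, against 4.86% of all genes higher and 5.05% lower. The removal takes out any difference between the groups that goes with length. A technical difference of that kind and a biological one cannot be told apart here. At an unadjusted p under 0.05, 5 were then higher and 2 lower, against 11.6% and 12.3% of all genes, so the share higher was close to that over all genes. The median over the 47 genes became 0.023, that of the 14 core subunits 0.017 and that of the 17 cap subunits 0.011, and 30 of the 47 changes were above 0, which is 63.8% beside 48.6% of all genes. PSMB8 went from a change of 0.28 to 0.19 ± 0.08 (SE, adjusted p = 0.104 by edgeR), and to between 0.12 and 0.27 when 1 library was left out as well. PSMG4 had 0.20 (adjusted p = 0.241), PSME1 0.13 (0.143), PSMB5 0.12 (0.141), PSME2 0.11 (0.268) and PSMB3 0.10 (0.302), each by edgeR. PSMD10, a short transcript of 779 bases, moved from -0.05 to -0.17 (adjusted p = 0.0913 by edgeR). Removing the trend on GC content as well also left 0 called, against 4.81% of all genes higher and 4.99% lower.

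**Figure D5:**
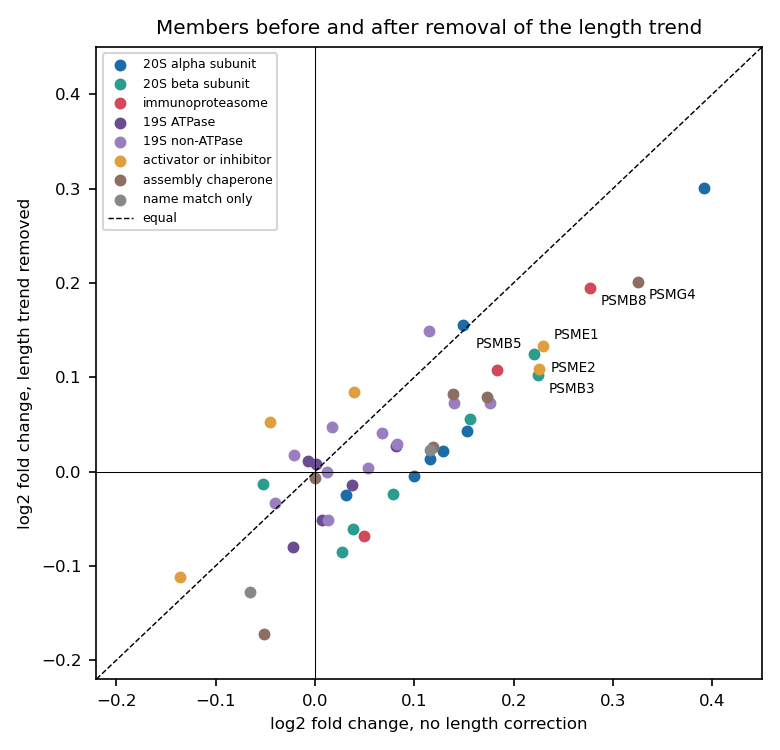
Log2 fold change of each tested gene after removal of the length trend against the value before, with a dashed line of equality. The 6 labelled genes lie below the line, between 0.10 and 0.20 after the removal, and most core subunits move towards 0.

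Promoters were set beside these values because the activators and the immunoproteasome are induced by interferon through a short element. RefSeq promoter windows (GRCh38.p14, 250 bases before to 50 after a start) were at hand for 43 of the 49 genes, all but PSMD4, PSMA7, PSMB6, PSMB7, PSMG3 and PSMB1. The core of the interferon response element, GAAA followed by any 2 letters and GAAA again, was searched on both strands. It was in the windows of 7 of the 43 genes, against 4.38% of 27305 genes in the table, and 4 of the 7 were among the called genes (PSMB8, PSME1, PSME2 and PSMG4), the others being PSMA4, PSMB4 and PSMB10. In 5 of the 7 the match had the same 10 letters, GAAAGCGAAA, which stood in the windows of 34 of the 27305 genes, or 0.1245%. The 10 letters were chosen after these windows had been read. These 5 are shown from 70 bases before the start to 30 after it, 5′ to 3′ on the gene's strand, with the 10 letters in capitals and read as TTTCGCTTTC where they lie on the opposite strand.
PSMB8: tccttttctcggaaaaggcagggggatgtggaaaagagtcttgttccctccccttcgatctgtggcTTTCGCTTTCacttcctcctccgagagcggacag
PSMB10: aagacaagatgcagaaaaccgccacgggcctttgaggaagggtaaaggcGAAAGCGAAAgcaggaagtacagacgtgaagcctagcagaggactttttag
PSME1: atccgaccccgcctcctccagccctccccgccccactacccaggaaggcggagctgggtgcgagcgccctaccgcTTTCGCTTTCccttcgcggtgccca
PSME2: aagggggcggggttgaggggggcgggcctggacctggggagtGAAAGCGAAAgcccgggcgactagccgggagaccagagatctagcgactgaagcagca
PSMG4: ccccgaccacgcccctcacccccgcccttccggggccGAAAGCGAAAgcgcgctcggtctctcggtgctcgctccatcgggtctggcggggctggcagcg

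In GRCh38.p14, the PSMB8 stretch is chr6:32844018-32844117 on the minus strand, the PSMB10 stretch is chr16:67936821-67936920 on the minus strand and the PSME1 stretch is chr14:24136124-24136223 on the plus strand. In the same build, the PSME2 stretch is chr14:24146581-24146680 on the minus strand and the PSMG4 stretch is chr6:3258877-3258976 on the plus strand. In PSMB10, with the same letters, no change passed the test. PSMB3 and PSMB5, which were also called, had no match to the core in their windows. The immunoproteasome subunit PSMB9 had no match to the core in its window either. A match is a run of letters and not a site shown to be bound.

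The other elements searched on both strands stood as follows. The antioxidant response element core TGACNNNGC, which is related to the sites of NFE2L1, the factor that raises proteasome genes when proteasomes are inhibited, was in 14 of the 43 genes and in 16.1% of all genes. The CCAAT box was in 22 of the 43 genes and in 39.7% of all genes, and the palindrome TTCNNNGAA of cytokine-induced promoters was in 8 of the 43 and in 9.38% of all genes. Among the 6 called genes, the antioxidant core was in 3 (PSMB3, PSME1 and PSME2). The CCAAT box was in 2 of the 6 (PSMB3 and PSMB5) and the palindrome in 2 (PSMB5 and PSMB8). Among the 35 genes with a window that were tested and not called, these elements were in 11, 19 and 5. No match of one element overlapped that of another.

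Other genes of the interferon route did not pass the test. IRF1, a factor that binds the interferon response element, had 13.5 and 15.1 CPM in shNC and 12.4 and 15.9 CPM in sh812. TAP1, a peptide transporter that lies next to PSMB9 on chromosome 6, had 49.6 and 57.6 CPM in shNC and 53.8 and 48.1 CPM in sh812, a change of -0.07 (adjusted p = 0.668 by edgeR). NLRC5 and TAPBP, which act in the same route, also had a fitted change below 0, TAP2 had one of 0.02, and none of the 3 passed in either direction.

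Around the proteasome, 35 further genes were listed for assembly, associated enzymes and shuttle factors, the NFE2L1 route, ubiquitin itself and the interferon route. Of the 35, 4 rose and 0 fell, against the 5.43% and 5.42% of all genes, and their median change was 0.023, which became -0.021 with library size alone. ECPAS, a protein that binds the assembled proteasome, had 123 and 120 CPM in shNC and 160 and 138 CPM in sh812 (0.30 ± 0.07 SE, adjusted p = 0.006 by edgeR). RAD23B, a shuttle factor that carries ubiquitinated proteins to the cap, had 313 and 300.3 CPM in shNC and 352 and 347 CPM in sh812 (0.19 ± 0.06 SE, adjusted p = 0.0339 by edgeR). In both genes the groups did not overlap, and both stayed called with the length trend removed.

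RPS27A, which encodes ubiquitin fused to a ribosomal protein, also rose. It had 601 and 762 CPM in shNC and 817 and 828 CPM in sh812 (0.27 ± 0.07 SE, adjusted p = 0.0176 by edgeR), with the shNC libraries further apart than the sh812 libraries. Its transcript is short, and it was not called with the length trend removed. UBB, which encodes a chain of ubiquitin units, had a change of -0.0039 and did not pass.

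POMP, the chaperone that completes core assembly, had 105 and 129 CPM in shNC and 130.0 and 131 CPM in sh812, so that shNC 2 stood with the sh812 libraries, and its change of 0.16 had an adjusted p of 0.183 by edgeR. NFE2L1 had 428 and 421 CPM in shNC and 377 and 384 CPM in sh812, without overlap. Its change of -0.16 ± 0.06 (SE) had an adjusted p of 0.0711 by edgeR, and passed with limma-voom, with library size alone and with other low-count filters. With the length trend removed, the change of NFE2L1 was -0.10 with an adjusted p of 0.269 by edgeR.

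The 47 genes lie on 17 chromosomes, and 3 of the 6 that rose lie near METTL3 on chromosome 14. METTL3 runs from 21498133 to 21511375 on the minus strand, PSMB5 runs from 23016543 to 23035230 on the minus strand, PSME1 from 24136158 to 24138967 on the plus strand and PSME2 from 24143362 to 24147570 on the minus strand (GENCODE 29, GRCh38). Between METTL3 and PSME2, 43 genes were tested, of which 7 rose and 3 fell, with a median change of 0.06 (0.04 with the length trend removed). Over the whole of chromosome 14, 583 genes were tested, 31 rose and 40 fell, and the median change was -0.0098. The other proteasome genes of the chromosome, PSMC1, PSMC6, PSMA3 and PSMA6, did not pass. The stretch was chosen after the positions of the called genes were seen, and its counts include METTL3 itself and PSMB5, PSME1 and PSME2. Without METTL3 and the proteasome genes, 4 of 39 rose and 2 fell, with a median change of 0.06 (0.03 with the length trend removed).

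The sequence GGACT is a common form of the motif at which N6-methyladenosine is added. It was counted in the longest coding transcript of each gene, where it stood at a median of 1.00 per kilobase in the 47 genes, at 1.51 in the 6 called genes, at 0.908 in the 41 not called and at 0.925 over 13237 tested genes with a coding transcript. Among the called genes it ran from 0.88 per kilobase in PSME1 to 3.56 in PSME2. As a count per transcript, the median was 2 in the 6 called genes, 2 in the 41 not called and 3 over the 13237 genes. The called genes thus differed from the others in density and not in the median count. The data hold no measure of the methyl mark.

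PSMC3IP, a recombination protein, and PSME3IP1, a partner of PSME3, share only the start of their names with the subunits. PSMC3IP had a change of -0.07 ± 0.16 (SE) and PSME3IP1 one of 0.12 ± 0.08 (SE), and neither passed.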

How the data were processed

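Poly(A) RNA of 4 PC3 libraries was made into libraries that keep strand by a dUTP method, with paired reads of 150 bases, per the labels' protocols. The authors deposited whole-number read counts per gene, with no normalization, and each library has its own total. The submitters' processing notes name fastp, STAR 2.7.1a, featureCounts, DESeq2 and hg38, with no role or order. The annotation release and whether the counting used strand are not given in the sources used here, so a gene and its antisense partner may share reads.

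All 4 libraries were fitted with edgeR 4.0.16 in R 4.3.3 (filterByExpr, TMM, glmQLFit and glmQLFTest, no covariate, prior count 0.125), with p-values adjusted by Benjamini-Hochberg over the 16802 genes tested and calls at an adjusted p under 0.05. CPM uses TMM-scaled library sizes. The SE comes from the quasi-likelihood F statistic. Transcript length is the median over a gene's transcripts with the basic tag in GENCODE 29, or over all of them where none has it. GENCODE 29 may not be the authors' annotation. The length trend was a lowess curve of span 0.3 per library, used as an offset. It was fitted to each library's deviation from the gene's mean over the 4 libraries. Within-pair chi-square per gene was 8.43 (shNC) and 4.51 (sh812), so replicates were kept as separate libraries. Deviations of libraries with the same replicate number had a correlation of 0.0164.

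The genes and lists were chosen with earlier results of these data known. PSMD5 matches the name pattern and was left out by name. Named with values in each library are the genes with an adjusted p under 0.05, the immune subunits and their partners, the highest and lowest change in each role, and, of the 35 pathway genes, those called and NFE2L1, POMP, IRF1 and TAP1, except a few genes that stay in the counts and are not reported here by name. PSMA3 and PSMA5 were added after their values were seen, as were the counts of GGACT, the promoter searches, the overlap of gene models and the chromosome 14 stretch. Alternatives were RLE and upper quartile factors, library size alone, other filters, DESeq2 1.42.0, limma-voom (limma 3.58.1), the replicate block, length and GC trends, a prior count of 2 and each library left out. The fit was tested on simulated data of 16420 genes: 12% of genes changed by log2 0.25 were called, 54.3% at 0.5 and 80.9% at 1, with 12 false among 119 calls. Small changes can thus be missed. The changed genes were few and were drawn at random from all genes that passed the filter. These shares need not hold for the proteasome genes, whose median level was 158 CPM, against 15.8 CPM over all genes tested.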

Additional observations from a re-analysis of the deposited data

How the results depend on the processing

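With library size alone, 561 genes were higher (912 with TMM), 2 proteasome genes higher and 1 lower, and 1 pathway gene lower. Medians were then 0.078 for the core, -0.028 for the cap and -0.021 for the pathway list, and PSMB8 stood at 0.23 (adjusted p = 0.0735, edgeR). With the length trend removed, alone or with GC content, 0 proteasome genes and 2 pathway genes were called higher, the medians were 0.023 and 0.028 for the 47 genes and 0.017 and 0.025 for the core, and PSMB8 stood at 0.19 and 0.19. With no low-count filter, with a mean CPM of at least 1 and with limma-voom, 1 pathway gene, NFE2L1, was called lower. Leaving out each library in turn, with and without the length trend, gave 261 to 1703 genes higher and 326 to 1549 lower, 0 to 17 proteasome genes higher, and 0 to 7 pathway genes higher with 0 to 1 lower. Medians ran from -0.0031 to 0.12 for the 47 genes, from 0.0048 to 0.17 for the core, from -0.039 to 0.058 for the cap and from -0.012 to 0.065 for the pathway list, and PSMB8 ran from 0.12 to 0.40. The cap median was below 0 without sh812 1 (-0.0014; -0.039 with the length trend removed) and without shNC 1 with the trend removed (-0.0028). The same fit put the pathway median at -0.012, and that without sh812 1 put the median of the 47 at -0.0031. The cause was not tested. With the replicate number as a block, the same 6 proteasome genes were called, with 1003 genes higher and 998 lower. That fit treats libraries of the same number as pairs, and the labels do not say that they are. METTL3 kept its direction and its call under every alternative run. PSMB9, PSMB10 and PSMA2 had the largest standard errors among the 47 genes.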
